A study of Mus musculus with 33 samples.

Results

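Fgf9, the secreted ligand fibroblast growth factor 9, and the receptor genes Fgfr1, Fgfr2 and Fgfr3 were followed after birth in tissue of the mouse MNTB, the medial nucleus of the trapezoid body. The members were the probe sets whose only gene symbol was Fgf9, Fgfr1, Fgfr2 or Fgfr3. These are 4 of the 14857 genes named on the array, and each had a single probe set, so none had to be chosen by brightness. The MNTB is an auditory brainstem nucleus whose glycinergic neurons each receive a giant terminal, the calyx of Held. All mice were wild-type FVB animals with no transgene or treatment in the labels, although the strain tag spells the strain FVN. Tissue was cut from live slices with a needle, so neurons, glia and vessels of the nucleus enter each sample together. Groups were mice at postnatal day 0 (P0), P1, P2, P3 and P6 with 5 mice each, and at P4 and P14 with 4 mice each, giving 33 arrays with 1 mouse per array. The titles number each mouse by litter, from litter 1 to litter 5, and do not say whether a number is the same litter at different ages. P4 and P14 have no litter 4.

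Fibroblast growth factors act through receptor tyrosine kinases, and binding needs heparan sulphate chains on the cell surface as a partner. A bound receptor pairs with another, phosphorylates docking proteins and feeds the Ras and MAP kinase, PI3 kinase and phospholipase C pathways, which in turn raise feedback inhibitors such as the Sprouty proteins. Fgf9 was first isolated from glial cells, is made by neurons in the brain, and binds well to Fgfr2 and Fgfr3. In brain tissue Fgfr1 is widely used by neurons and progenitors, Fgfr2 is known from oligodendrocyte lineage cells, where it takes part in myelin growth, and Fgfr3 is known from astrocytes. Each gene has 1 value per array here, so splice forms that differ in ligand binding were not separated.

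RefSeq promoter windows, running from 250 bases before to 50 bases after a start of transcription, matched 3 of the 4 genes: Fgf9, Fgfr2 and Fgfr3. The windows of Fgfr2, the receptor that changed most with age, and of Fgf9, its ligand, are shown, each read 5′ to 3′ along its gene. Positions are those of GRCm38.p6, a different build from the mm9 that the submitters name, and were not joined to any array value. Capitals mark ACAAT, the core letters bound by Sox factors, searched as ACAAT and as ATTGT on the other strand.
Fgfr2: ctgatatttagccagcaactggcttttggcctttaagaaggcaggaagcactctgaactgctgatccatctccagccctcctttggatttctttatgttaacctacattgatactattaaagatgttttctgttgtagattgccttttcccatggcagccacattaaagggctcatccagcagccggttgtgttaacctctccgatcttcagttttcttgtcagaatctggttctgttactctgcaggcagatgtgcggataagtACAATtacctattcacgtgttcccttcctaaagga
Fgf9: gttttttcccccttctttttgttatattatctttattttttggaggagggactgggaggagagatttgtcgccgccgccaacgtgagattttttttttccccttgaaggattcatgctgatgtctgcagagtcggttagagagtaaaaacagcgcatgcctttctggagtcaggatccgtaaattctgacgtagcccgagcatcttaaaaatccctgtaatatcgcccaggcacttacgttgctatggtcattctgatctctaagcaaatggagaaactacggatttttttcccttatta
The Fgfr2 window lies at chr7:130266759-130267058 on the minus strand and the Fgf9 window at chr14:58072436-58072735 on the plus strand. The Fgfr2 window holds 1 ACAAT, in the bases after the start, and the Fgf9 window holds none. Of 32851 windows from 27025 genes, 31% hold ACAAT or ATTGT, so a single match in Fgfr2 is common. The GC content was 43.7% in Fgfr2 and 42.7% in Fgf9, against a median of 52.7% over all windows. The Fgfr2 window has 4 CG dinucleotides, the Fgf9 window has 12, and the median window has 7. Fgfr3 has 2 windows, at chr5:33721474-33721773 and chr5:33722056-33722355 on the plus strand, and both differ in composition from the windows shown. Their GC contents were 69.7% and 73%, with 26 and 30 CG dinucleotides, and neither holds the motif. No array value bears on binding at any of these windows.

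All expression values below are log2 values from robust multi-array averaging, and 1 unit is a doubling of signal. Across the 33 arrays the median log2 value ran from 4.829 to 5.116 and the mean correlation with arrays of the same age from 0.9722 to 0.9856. The lowest estimated quality weights belonged to P6 litter 4 (0.271), P2 litter 4 (0.432) and P1 litter 4 (0.45), where the highest weight was 2.152. The P6 litter 4 mouse was the lowest P6 mouse for all 4 genes. The array medians averaged 4.95 at P0, 4.95 at P6 and 5.07 at P14, so calls that involve P14 are also given on other scalings where these end them. Of 9 measured genes of 10 that mark MNTB principal neurons and glycinergic cells, 7 had age means above the array median at P0 and 8 at P14. Since no cell type was isolated, a change in a cell type's number and a change in RNA per cell cannot be told apart in any result below. Nothing but the litter number says how mice of an age are related, and p-values measure the spread between the mice.

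Across the 7 ages, Fgfr2 was the single member whose age means differed by limma's moderated F test, with an adjusted p of 2.78e-08. Its age means spanned 1.74 log2 units against a within-age SD of 0.277, and age accounted for 82.7% of its variance. This is 1 called member of 4, while 28.5% of all 16686 probe sets were called by the same test. The age means of Fgf9 spanned 0.53 (adjusted p 0.336 by limma, within-age SD 0.329), those of Fgfr1 0.45 (0.101, SD 0.214) and those of Fgfr3 0.37 (0.204, SD 0.194). Fgfr1 came under the threshold without P14 litter 5 (adjusted p 0.0345) and without P6 litter 4 (0.0435). Fgfr3 came under it without P14 litter 1 (adjusted p 0.042), with litter number as a block (0.0414), after quantile normalization (0.00393) and after centring each array on its median (0.0242).

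**Figure D1:**
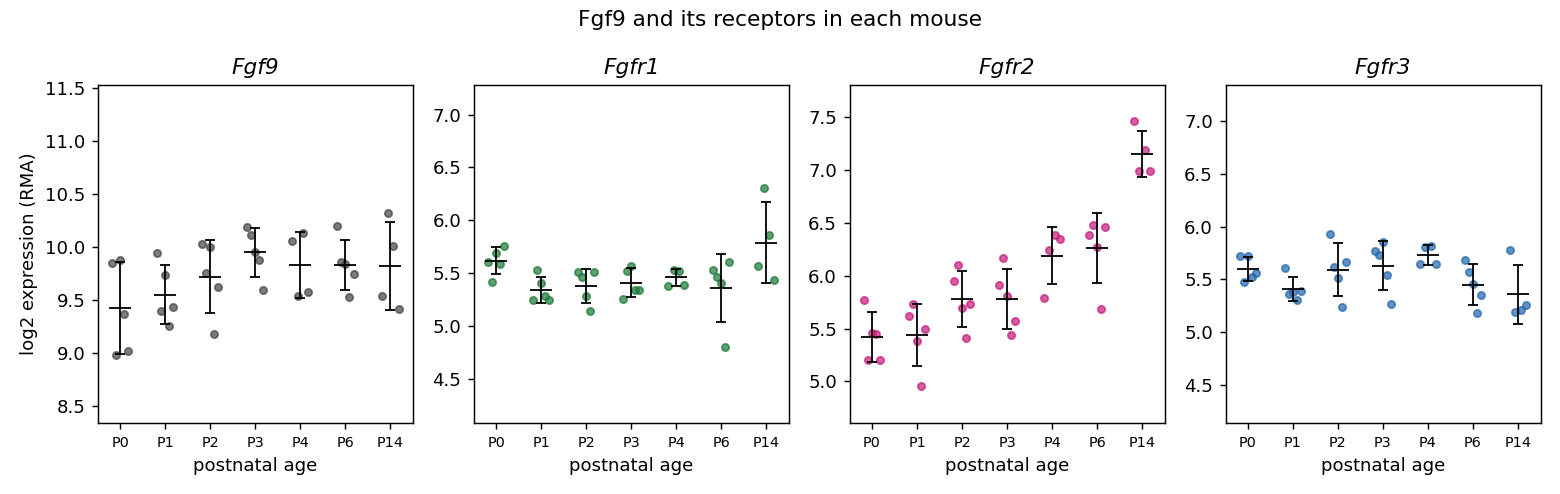
Log2 expression of Fgf9, Fgfr1, Fgfr2 and Fgfr3 in each mouse (points) by postnatal age, with the mean and SD of each age (bars, n = 4 or 5); the ages are evenly spaced and the panels have different offsets but the same height in log2 units. Fgfr2 has its 4 P14 mice between 6.99 and 7.46, above every younger mouse, while the ages of Fgf9 overlap throughout.

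The ligand Fgf9 had the brightest probe set of the 4, between the 94.7 and 97.9 percentile of its array at P0, which reflects the probe set as well as the RNA. Its log2 values in litters 1 to 5 were 9.85, 8.98, 9.88, 9.37 and 9.02 at P0, 9.94, 9.39, 9.73, 9.25 and 9.43 at P1, and 10.03, 9.75, 10, 9.18 and 9.62 at P2. They were 10.19, 10.11, 9.95, 9.88 and 9.59 at P3, and 10.06, 9.54, 10.13 and 9.57 at P4. They were 10.20, 9.86, 9.84, 9.53 and 9.74 at P6, and 9.54, 10.32, 10.01 and 9.41 at P14. Every age overlapped every other age, and the P14 mice alone ran from 9.41 to 10.32.

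The Fgf9 means were 9.42 ± 0.433 at P0, 9.55 ± 0.281 at P1, 9.72 ± 0.348 at P2 and 9.95 ± 0.233 at P3 (SD, n = 5 each). They then stood at 9.83 ± 0.313 at P4 (n = 4), 9.83 ± 0.24 at P6 (n = 5) and 9.82 ± 0.42 at P14 (n = 4). The age means were thus ordered P3, P6, P4, P14, P2, P1 and P0 from highest to lowest, and no neighbours in this order differed in limma's test. None of the 21 pairs of ages passed an adjusted p of 0.05, and 2 had an unadjusted p under it. These 2 were P3 against P0 (change 0.53 ± 0.2 SE, unadjusted limma p 0.0135, adjusted 0.143) and P6 against P0 (0.41 ± 0.2, unadjusted 0.0479, adjusted 0.196). With litter number as a block P3 against P0 was called, with the same change of 0.53 ± 0.151 (limma adjusted p 0.031). The 95% interval of P6 minus P0 ran from 0 to 0.82, so it reaches from no change to a rise of about that size. From P6 to P14 the change was -0.01 ± 0.212, with an interval from -0.45 to 0.42, and its sign turned without P14 litter 1 (0.08), P14 litter 5 (0.12) or P6 litter 1 (0.08).

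A straight line through the 29 arrays from P0 to P6 gave Fgf9 a slope of 0.072 ± 0.0282 log2 units per day (limma adjusted p 0.0792, with 17.3% of all probe sets called for a slope). With litter number as a block the slope was 0.069 and its adjusted p 0.0113. It also passed after quantile normalization (0.079, adjusted p 0.0223), with array centring (0.071, 0.0475), with array weights (0.074, 0.0473) and without P6 litter 4 (0.086, 0.0413). The Fgf9 values moved with the litter number. Litter 3 lay above the age mean at 7 of 7 ages and litter 1 at 6 of 7, with mean deviations of 0.21 and 0.24. Litter 5 lay above it at 0 of 7 ages and litter 4 at 0 of 5, with a mean deviation of -0.25 in each. Whether the numbers stand for shared litters, dissection days or neither was not tested.

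Fgfr2 encodes the receptor that in mice is needed, with Fgfr1, for thick myelin. It rose by 0.84 log2 units from P0 to P6 and by a further 0.9 from P6 to P14, a total of 3.33-fold. No age between P6 and P14 was sampled, and whether the rise had separate stages was not tested. Its log2 values in litters 1 to 5 were 5.77, 5.20, 5.46, 5.45 and 5.20 at P0, 5.62, 5.73, 5.38, 4.96 and 5.50 at P1, and 5.95, 6.10, 5.69, 5.41 and 5.73 at P2. They were 5.91, 6.17, 5.81, 5.44 and 5.57 at P3, and 5.79, 6.24, 6.38 and 6.35 at P4. They were 6.38, 6.48, 6.27, 5.68 and 6.46 at P6, and 7.46, 6.99, 7.19 and 6.99 at P14. All 4 P14 mice were above all 29 younger mice, and 4 of the 5 P6 mice were above all P0 mice. The exception was P6 litter 4, at 5.68, which lay below P0 litter 1 at 5.77. How many of all probe sets separate in these ways was not counted. For P14 against P6 alone 13.9% of all probe sets had every later mouse above every earlier mouse, and for P14 against P0 alone 15.2%.

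The Fgfr2 means were 5.42 ± 0.238 at P0, 5.44 ± 0.294 at P1, 5.78 ± 0.264 at P2 and 5.78 ± 0.287 at P3 (SD, n = 5 each). They were 6.19 ± 0.271 at P4 (n = 4), 6.26 ± 0.333 at P6 (n = 5) and 7.15 ± 0.222 at P14 (n = 4). The order of the means was the order of the ages, and P14 against P6 were the one pair of neighbours called. Between P0 and P6 the slope was 0.155 ± 0.0253 log2 units per day (limma adjusted p 2.85e-05). No single step between neighbouring sampled ages before P6 was called for Fgfr2 or any other member. Few probe sets were called in these steps, at 0.204% for P1 against P0, 0.018% for P2 against P1, 0.024% for P3 against P2, 0.012% for P4 against P3 and 0.479% for P6 against P4.

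For P6 against P0, Fgfr2 averaged 6.26 at P6 and 5.42 at P0, a change of 0.84 ± 0.17 (SE; 1.79-fold, 95% interval 0.49 to 1.19, limma adjusted p 0.000631). It was 1 of 4 members called, with 14.4% of all probe sets called and 6.42% called higher. Without the low-weight P6 litter 4 array the change was 0.98 (adjusted p 6.18e-05). For P14 against P6, Fgfr2 averaged 7.15 at P14 and 6.26 at P6, a change of 0.9 ± 0.18 (1.86-fold, interval 0.53 to 1.27, limma adjusted p 0.00035). Here 2 of 4 members were called, both higher, with 20.9% of all probe sets called and 15.7% called higher. The mice of the 2 ages did not overlap, as was so in the same direction for 13.9% of all probe sets. For P14 against P0 the change was 1.74 ± 0.18 (interval 1.37 to 2.10, limma adjusted p 3.25e-09), and 1 of 4 members was called, with 33% of all probe sets called. The P14 and P0 mice did not overlap, as was so in the same direction for 15.2% of all probe sets. Over all alternatives tried, arrays left out one at a time included, Fgfr2 kept its calls, with changes from 0.78 to 1.00 for P6 against P0 and from 0.66 to 0.96 for P14 against P6.

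Of the 21 pairs of ages, 10 were called for Fgfr2, all higher at the later age. They were the 6 pairs that include P14 (with 31.2%, 29.3%, 26.5% and 22.3% of all probe sets called for P14 against P1, P2, P3 and P4), both pairs of P6 with P0 and P1, and both pairs of P4 with P0 and P1. At P4 the change from P0 was already 0.77 ± 0.18 (limma adjusted p 0.00619, 6.19% of all probe sets called). No P4 mouse lay at or below a P0 mouse, a separation that was not counted over all probe sets. Against P1 the change was 0.75 ± 0.18 at P4 (adjusted p 0.0196, 1.87% called) and 0.82 ± 0.17 at P6 (adjusted p 0.00139, 8.75% called). P2 and P3 each exceeded P0 by 0.36 ± 0.17, which did not pass (limma adjusted p 0.387 and 0.259). With litter number as a block P6 against P2 was called too (0.48 ± 0.139, adjusted p 0.0406).

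**Figure D2:**
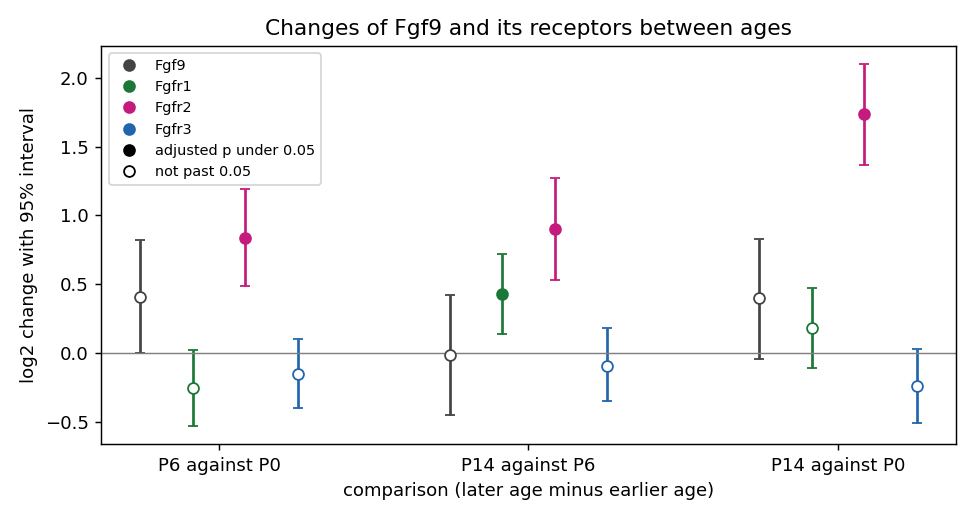
Log2 change of each member, later age minus earlier age, for P6 against P0, P14 against P6 and P14 against P0, with 95% intervals from limma; filled points have an adjusted p under 0.05. Fgfr2 is filled in all 3 comparisons, at 0.84, 0.9 and 1.74, and Fgfr1 in P14 against P6 alone, at 0.43.

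Fgfr1 encodes the receptor with the widest use in developing brain. The Fgfr1 values in litters 1 to 5 were 5.61, 5.42, 5.69, 5.59 and 5.76 at P0, 5.25, 5.53, 5.41, 5.28 and 5.25 at P1, and 5.51, 5.46, 5.28, 5.14 and 5.51 at P2. They were 5.26, 5.52, 5.57, 5.34 and 5.34 at P3, and 5.38, 5.53, 5.52 and 5.39 at P4. They were 5.53, 5.46, 5.41, 4.80 and 5.61 at P6, and 5.57, 6.31, 5.86 and 5.44 at P14. The ages overlapped, P14 litter 2 was the highest of all 33 mice and P6 litter 4 the lowest.

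The Fgfr1 means were 5.62 ± 0.128 at P0, 5.34 ± 0.124 at P1, 5.38 ± 0.163 at P2, 5.41 ± 0.135 at P3 (SD, n = 5 each) and 5.46 ± 0.0801 at P4 (n = 4). They were 5.36 ± 0.325 at P6 (n = 5) and 5.79 ± 0.386 at P14 (n = 4), so the highest means stood at the 2 ends of the series. No neighbours in the order P14, P0, P4, P3, P2, P6 and P1 differed in limma's test. P14 exceeded P6 by 0.43 ± 0.142 (1.35-fold, limma adjusted p 0.0277), and the mice of the 2 ages overlapped. This call was lost without P14 litter 2 (0.26, adjusted p 0.195), without P14 litter 3 (0.41, 0.0716) and without P6 litter 4 (0.29, 0.122). It was also lost after quantile normalization (0.27, adjusted p 0.186) and array centring (0.32, 0.0933), and with array weights the change was 0.2 (0.225).

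P14 was called above P1 (0.45 ± 0.142, limma adjusted p 0.0151), P2 (0.41 ± 0.142, 0.0274) and P3 (0.39 ± 0.142, 0.0425) as well, comparisons with 31.2%, 29.3% and 26.5% of all probe sets called. These 3 pairs and P14 against P6 were the 4 called of 21. Without P14 litter 2 the number was 0, without P14 litter 3 it was 1, and after quantile normalization it was 0. With litter number as a block it was 3, as P14 against P3 was no longer called. P14 against P0 was a change of 0.18 ± 0.142 (adjusted p 0.39). P6 against P0 was a change of -0.25 ± 0.134 (limma adjusted p 0.244, interval -0.53 to 0.02).

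Fgfr3 encodes the receptor that marks astrocytes and their precursors in the brain. Its values in litters 1 to 5 were 5.72, 5.48, 5.72, 5.52 and 5.56 at P0, 5.61, 5.36, 5.38, 5.31 and 5.39 at P1, and 5.93, 5.62, 5.51, 5.24 and 5.66 at P2. They were 5.77, 5.73, 5.85, 5.54 and 5.27 at P3, and 5.65, 5.81, 5.82 and 5.65 at P4. They were 5.68, 5.57, 5.46, 5.18 and 5.35 at P6, and 5.78, 5.19, 5.21 and 5.26 at P14. P14 litter 1 stood apart at 5.78, with the other 3 P14 mice between 5.19 and 5.26.

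The Fgfr3 means were 5.6 ± 0.112 at P0, 5.41 ± 0.115 at P1, 5.59 ± 0.25 at P2 and 5.63 ± 0.233 at P3 (SD, n = 5 each). They were 5.73 ± 0.094 at P4 (n = 4), 5.45 ± 0.192 at P6 (n = 5) and 5.36 ± 0.281 at P14 (n = 4). The order was P4, P3, P0, P2, P6, P1 and P14, with no neighbours called. None of the 21 pairs was called and 4 had an unadjusted p under 0.05 in limma's test, of which P14 against P4 was nearest to a call (-0.37 ± 0.137, adjusted p 0.0509). The change from P6 to P14 was -0.09 ± 0.13 (adjusted p 0.717) and that from P0 to P6 was -0.15 ± 0.123 (adjusted p 0.504).

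P14 against P0 was a change of -0.24 ± 0.13 for Fgfr3 (limma adjusted p 0.171). Without P14 litter 1 it was -0.38 (adjusted p 0.0234), and with litter number as a block it was -0.29 (0.033). After quantile normalization it was -0.38 (0.00376) and after array centring -0.36 (0.0147). With the same block 4 of the 21 pairs of ages were called for Fgfr3, those of P14 with P0, P2 (-0.27, 0.0446), P3 (-0.32, 0.0208) and P4 (-0.37, 0.0118). The share of all probe sets called with the block was not counted. Without it, 33%, 29.3%, 26.5% and 22.3% of all probe sets were called for these 4 pairs.

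Because the genes were measured in the same mice, their changes could be set against each other by taking, in each mouse, the log2 value of one gene minus that of another and comparing these differences between ages. Levels of different probe sets are not comparable. Changes can be compressed differently in probe sets of different brightness, and Fgf9 was far brighter than the receptors, which limits the differences from Fgf9 most. Whether compression differed between these probe sets was not tested. There were 6 pairs of genes and 3 comparisons, 18 two-sided exact permutation tests in all, of which 10 had an adjusted p under 0.05. The smallest unadjusted p these numbers of mice allow is 0.00794. Of the 10 calls, 2 held in every fit without 1 array, those of Fgfr2 with Fgfr1 and of Fgfr3 with Fgfr2 at P6 against P0, and 8 were lost in at least 1 such fit. Fewer mice also leave fewer arrangements in such a fit. In comparisons that involve P14 this raises the smallest p a fit can reach. A call lost there need not mean a smaller difference.

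Fgfr2 moved away from both other receptors before P6. Between P0 and P6 it rose by 1.09 more than Fgfr1, and the mice of the 2 ages did not overlap (exact permutation, adjusted p 0.0204). The change of Fgfr3 was lower than that of Fgfr2 by 0.99 in this interval (difference -0.99, adjusted p 0.0204), and by the same amount between P6 and P14 (difference -0.99, adjusted p 0.0204). By P14 the difference between Fgfr3 and Fgfr2 had reached -1.98 relative to P0 (exact permutation, adjusted p 0.0204). These 2 calls that involve P14 were each lost in 5 of 9 fits without 1 array, with adjusted p up to 0.0735 and 0.0571. Each of the 5 left out a mouse of the earlier age, P6 or P0. Over the 9 fits the differences stayed from -1.06 to -0.91 and from -2.04 to -1.92. With fewer arrangements in such fits, these losses cannot tell a weaker difference from a coarser test. Between P6 and P14 the change of Fgfr2 exceeded that of Fgfr1 by 0.47, which did not pass (exact permutation, adjusted p 0.119), and without P14 litter 2 it was 0.69 (0.0357). The changes of Fgfr3 and Fgfr1 did not differ past the threshold in any comparison, at 0.1, -0.52 and -0.42 (exact permutation, adjusted p 0.437, 0.143 and 0.2).

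Relative to the ligand, Fgfr3 changed by 0.56 less than Fgf9 between P0 and P6 (difference -0.56, exact permutation, adjusted p 0.0204, no overlap), and Fgfr1 by 0.67 less (difference -0.67, adjusted p 0.0429). Without 1 array these calls were lost in 5 of 10 and in 10 of 10 fits, with adjusted p up to 0.0714 and 0.103. Fgfr2 exceeded the change of Fgf9 by 0.43 in that interval (adjusted p 0.0649), by 0.91 between P6 and P14 (adjusted p 0.0357) and by 1.34 from P0 to P14 (adjusted p 0.0204). The calls that involve P14 were lost in 8 of 9 and 5 of 9 fits without 1 array, with adjusted p up to 0.103 and 0.0571. The latter 5 fits each left out a P0 mouse, and over all 9 fits the P0 to P14 difference ran from 1.14 to 1.56. Fgfr1 exceeded Fgf9 by 0.45 between P6 and P14 (exact permutation, adjusted p 0.0429), a call lost in 9 of 9 such fits (adjusted p 0.0514 to 0.117). The other differences from Fgf9 did not pass. They were -0.07 for Fgfr3 between P6 and P14 (adjusted p 0.802), and -0.64 for Fgfr3 (0.153) and -0.22 for Fgfr1 (0.402) between P0 and P14.

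**Figure D3:**
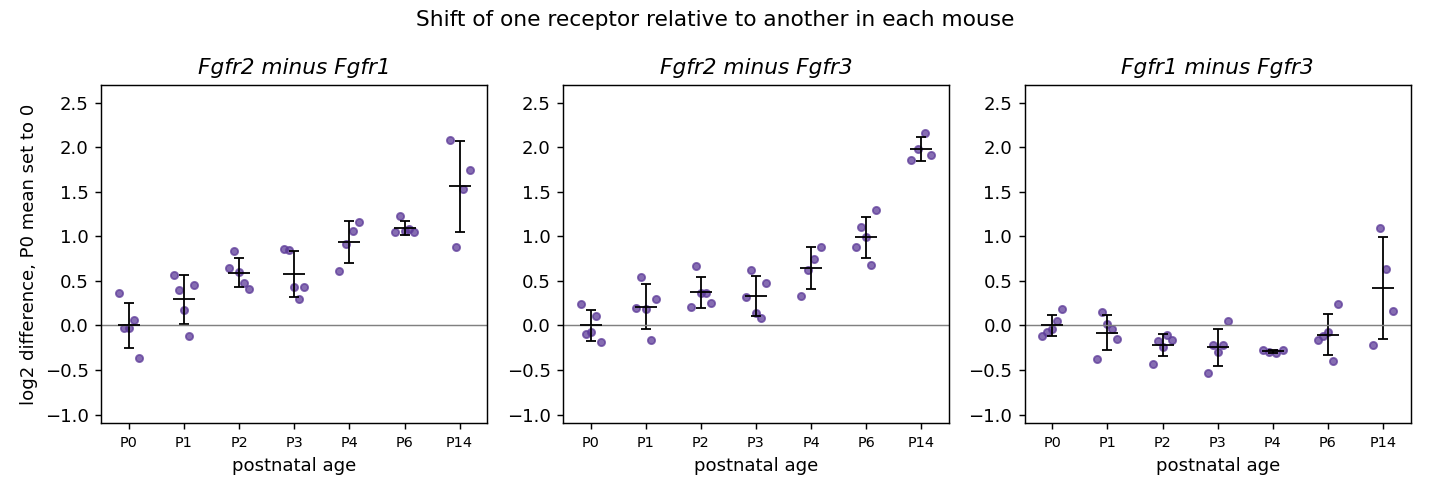
Difference between 2 receptors in each mouse (points, log2, with the P0 mean set to 0) by postnatal age, with mean and SD (bars, n = 4 or 5). Fgfr2 minus Fgfr1 averages 1.09 at P6 and 1.56 at P14, Fgfr2 minus Fgfr3 stands apart from P0 in every P6 and P14 mouse, and Fgfr1 minus Fgfr3 has overlapping mice at P14 and P0.

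Markers of other cells in the tissue moved over the same ages. For the counts below, 6.42% of all probe sets were called higher at P6 than at P0, and 15.7% at P14 than at P6. For myelin, 15 of 17 listed genes were measured, and their mean log2 level ran from 4.28 to 4.66 over the P0 mice, from 6.74 to 7.48 over the P6 mice and from 9.78 to 10.06 over the P14 mice. Of these markers 11 had age means below the array median at P0, 2 at P6 and 0 at P14. All 15 were called higher at P14 than at P6, and 13 were called higher at P6 than at P0. The 11 oligodendrocyte precursor markers, all measured, averaged 4.91 to 5.27 at P0, 5.92 to 6.47 at P6 and 6.47 to 6.56 at P14. Of them 8 were called higher and 0 lower at P6 than at P0, and 4 higher and 1 lower at P14 than at P6, where quantile normalization and centring each gave 2 higher and 1 lower.

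For astrocytes, 14 of 15 markers were measured and averaged 8.01 to 8.39 at P0, 8.51 to 8.97 at P6 and 9.37 to 9.60 at P14. Of these 9 were called higher and 0 lower at P6 than at P0, and 7 higher and 2 lower at P14 than at P6. Fgfr3 was called in neither comparison. Principal neuron and glycinergic markers averaged 6.71 to 7.12 at P0, 7.80 to 8.31 at P6 and 8.21 to 8.67 at P14, but the list was split. Of its 9 measured markers 4 were called higher and 2 lower at P6 than at P0. At P14 against P6 the counts were 5 higher and 3 lower, where quantile normalization and centring each gave 3 higher and 3 lower. Immature neuron markers, 9 of 10 measured, averaged 8.18 to 8.53 at P0, 6.89 to 7.43 at P6 and 6.36 to 6.49 at P14.

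Microglia markers, 12 of 12 measured, averaged 4.55 to 4.97 at P0, 5.34 to 5.55 at P6 and 6.18 to 6.53 at P14, and endothelial markers, 10 of 11 measured, averaged 5.23 to 5.75, 5.38 to 5.88 and 6.39 to 6.78 at these ages. Pericyte and smooth muscle markers, 9 of 9 measured, averaged 4.74 to 4.92 at P0, 4.86 to 5.14 at P6 and 5.23 to 5.57 at P14. Markers of meningeal fibroblasts, 9 of 9 measured, and of ependyma and choroid plexus, 5 of 7 measured, had means over the mice of 4.75 and 4.37 at P0, 4.76 and 4.64 at P6, and 4.98 and 4.54 at P14. Of the microglia markers 6 were called higher at P6 than at P0 and 10 at P14 than at P6, with 0 lower in each. Several lists of different cell types thus went up over the ages at which Fgfr2 rose. The part of any of these cell types in the Fgfr2 and Fgfr1 results was not tested.

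**Figure D4:**
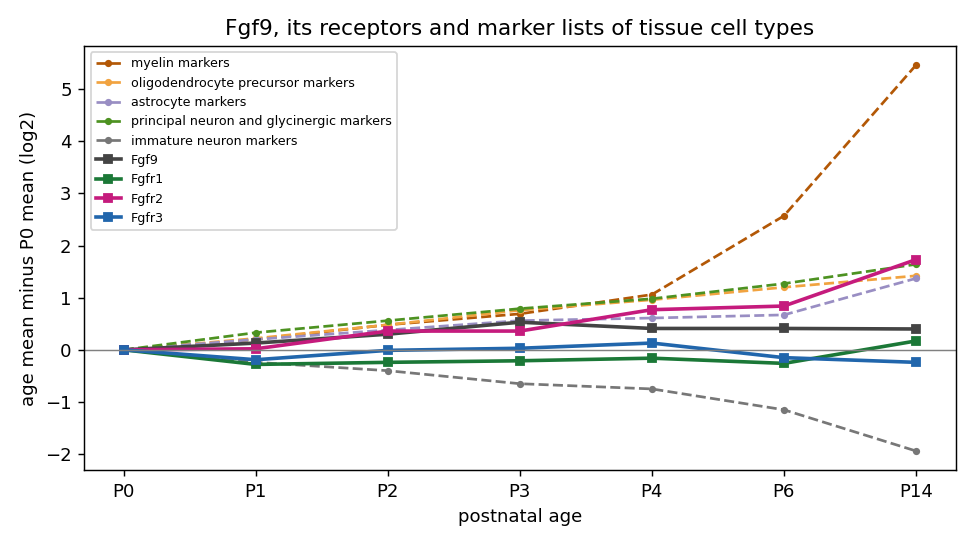
Age mean minus P0 mean (log2) of Fgf9 and the 3 receptors (squares, solid lines) and of the mean level of 5 lists of cell type markers (small circles, dashed lines); the ages are evenly spaced on the axis. Fgfr2 ends 1.74 above P0, close to the astrocyte, oligodendrocyte precursor and principal neuron lists, while the myelin list ends far above it and the immature neuron list far below.

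The wider pathway was taken from 6 lists of 113 genes, of which 94 were measured by a probe set of their own. Fgf2 and Fgf11 share probe sets with neighbouring genes and were left out. At P6 against P0, 12 of the 94 were called higher and 16 lower (29.8%, against 14.4% of all probe sets), and the median change was -0.08 against -0.01 over all probe sets. At P14 against P6, 19 were higher and 9 lower (29.8%, against 20.9%), with a median of 0.09 against 0.05. At P14 against P0, 25 were higher and 18 lower (45.7%, against 33%), with a median of 0 against 0.03.

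The balance of higher and lower calls at P14 depended on the scaling. For P14 against P6, quantile normalization gave 11 higher and 19 lower pathway genes and array centring 14 and 15. Over all probe sets that comparison gave 2627 higher and 858 lower as deposited, 1827 and 1740 after quantile normalization, and 1977 and 1441 after centring. For P14 against P0, quantile normalization gave 21 higher and 34 lower pathway genes and centring 21 and 30. Over all probe sets it gave 3457 higher and 2042 lower as deposited, 2813 and 3162 after quantile normalization, and 2760 and 3112 after centring. The median change of all probe sets for P14 against P6 was 0.05 as deposited, -0.02 after quantile normalization and -0.06 after centring, and for P14 against P0 it was 0.03, -0.03 and -0.09.

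Among the other secreted ligands, 2 of 15 measured genes were called higher and 0 lower at P6 against P0, and 1 was higher and 1 lower at P14 against P6. This is 13.3% of the list in each interval, no more than the 14.4% and 20.9% of all probe sets called. Fgf1, a ligand that binds every Fgf receptor, had values of 7.36, 6.87, 7.59 and 7.09 at P14, against 5.09, 4.88, 5.22, 4.55 and 4.72 at P6. No P14 mouse came near a P6 mouse. The change was 2.33 ± 0.158 (5.05-fold, limma adjusted p 1.14e-12), after a change of 0.71 ± 0.149 from P0 to P6 (adjusted p 0.000978). Fgf10, which acts mainly through a splice form of Fgfr2, rose by 1.08 ± 0.214 at P6 against P0 (adjusted p 0.000511) and fell by 0.95 at P14 against P6 (adjusted p 0.00236). Fgf16 and Fgf20, the closest relatives of Fgf9, were below the array median at every age. Their age means ran from 3.57 to 3.8 and from 3.56 to 3.90 (limma F test adjusted p 0.412 and 0.849). Fgf18 was bright, with age means from 8.49 to 8.79 (adjusted p 0.657).

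The intracellular homologs, which are not secreted and bind sodium channels, had 3 measured genes, and each was called in all 3 comparisons. Of all probe sets, 14.4% were called at P6 against P0, 20.9% at P14 against P6 and 33% at P14 against P0. Fgf12 rose by 0.79 ± 0.145 up to P6 and by 0.67 ± 0.154 after it (limma adjusted p 0.000208 and 0.00156). Fgf13 fell by 0.85 and then by 1.36 (adjusted p 0.00106 and 2e-06), and Fgf14 fell by 0.55 and then by 0.72 (adjusted p 0.00217 and 0.000114). The 3 directions were the same under both other scalings.

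Of 12 measured other receptors and co-receptors, 1 was called higher and 4 lower at P6 against P0, and 2 higher and 2 lower at P14 against P6. These are 41.7% and 33.3% of the list, against 14.4% and 20.9% of all probe sets. After quantile normalization the count for P14 against P6 was 0 higher and 4 lower. Fgfrl1, a receptor without a kinase domain, rose by 0.42 ± 0.0812 up to P6 (limma adjusted p 0.000372) and by 0.46 ± 0.0862 after it (0.000158), where quantile normalization gave 0.23 and an adjusted p of 0.125. The fourth kinase receptor, Fgfr4, was below the array median at each age (age means 3.79 to 3.94, F test adjusted p 0.705). The list also holds adhesion molecules that can bind Fgf receptors. L1cam fell by 1.47 up to P6 and by 2.3 after it (limma adjusted p 2.69e-06 and 1.32e-09), and N-cadherin, Cdh2, fell by 1.05 and by 0.53 (1.46e-07 and 0.00272). Ncam1 fell by 0.39 up to P6 (adjusted p 0.0209), with a change of -0.16 after it (0.418). Flrt1, Flrt2 and Flrt3 changed by -0.31, 0.13 and -0.08 up to P6 (adjusted p 0.194, 0.84 and 0.87). Flrt3 was called at P14 against P6 (0.63 ± 0.205, 0.0258), a call lost in 5 of 9 fits without 1 array, after quantile normalization (0.38, 0.122) and after centring (0.51, 0.0517). The carrier Fgfbp3 fell by 0.54 at P6 against P0 (adjusted p 0.00206).

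The heparan sulphate list holds proteoglycans, which carry the chains that ligand and receptor share, and enzymes that make or trim these chains. Of 27 measured, 5 were called higher and 4 lower at P6 against P0, and 7 higher and 3 lower at P14 against P6. These are 33.3% and 37% of the list, against 14.4% and 20.9% of all probe sets. The glypican Gpc5 rose by 1.56 ± 0.192 up to P6 (limma adjusted p 4.09e-07), and 3 further genes rose in that interval: the syndecans Sdc4 (0.79 ± 0.204, 0.00723) and Sdc2 (0.74 ± 0.186, 0.00588) and the sulphatase Sulf2 (0.76 ± 0.126, 4.49e-05). The sulphotransferase Hs3st1 rose by 2.08 ± 0.124 between P6 and P14 (4.23-fold, adjusted p 7.65e-14), and the chain-building Extl3 by 0.72 ± 0.169 (0.00199). Hs6st2, another sulphotransferase, fell by 1.39 between P0 and P14 (adjusted p 1.35e-06). Ext1 changed by -0.68 ± 0.214 between P6 and P14 (adjusted p 0.0202), a call lost in 4 of 9 fits that left out 1 array.

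Of 19 measured adaptors and relay genes, 2 were called higher and 4 lower at P6 against P0, and 5 higher and 0 lower at P14 against P6. These are 31.6% and 26.3% of the list, against 14.4% and 20.9% of all probe sets. After quantile normalization the count for P14 against P6 was 2 and 2. The docking protein Gab1 rose by 0.82 ± 0.162 and then by 1.21 ± 0.171 (limma adjusted p 0.000444 and 2.8e-06), and the phosphatase Ptpn11, which binds it, rose by 0.68 ± 0.133 after P6 (0.000239). The PI3 kinase subunit Pik3r1 rose by 0.75 ± 0.163 at P6 against P0 (0.0014), while the kinase Akt1 fell by 0.93 (0.00519). Map2k1 changed by 0.78 ± 0.259 and Shc1 by 0.62 ± 0.212 at P14 against P6 (adjusted p 0.0293 and 0.0358). These 2 calls were lost in 4 and 7 of the 9 fits that left out 1 array. After quantile normalization Map2k1 changed by 0.54 (0.0736) and Shc1 by 0.52 (0.072), and after centring Shc1 changed by 0.5 (0.0754).

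Of 18 measured feedback inhibitors and target genes, 1 was called higher and 2 lower at P6 against P0, and 3 higher and 1 lower at P14 against P6. These are 16.7% and 22.2% of the list, near the 14.4% and 20.9% of all probe sets. After quantile normalization the count for P14 against P6 was 2 higher and 5 lower. At P14 against P0, 6 were called higher and 3 lower, which is 50% of the list against 33% of all probe sets. Quantile normalization gave 5 higher and 6 lower there. The early response gene Fos rose by 0.55 ± 0.144 at P6 against P0 (limma adjusted p 0.00756) and by 1.01 ± 0.153 at P14 against P0 (3.41e-06). At P14 against P6 it changed by 0.46 ± 0.153 (0.0312), a call lost in 4 of 9 fits without 1 array, after quantile normalization (0.39, 0.0684) and after centring (0.34, 0.103). Il17rd, a membrane inhibitor of the receptors, changed by -0.6 ± 0.194 at P14 against P6 (0.0262, lost in 4 of 9 fits without 1 array). Spry2, Dusp6 and Etv5, familiar read-outs chosen after their values were seen, passed in neither interval. Spry2 changed by 0.33 and 0.16 in the 2 intervals (limma adjusted p 0.561 and 0.792), Dusp6 by -0.27 and -0.05 (0.375 and 0.907), and Etv5 by 0.35 and 0.1 (0.158 and 0.767). From P0 to P14 Etv5 changed by 0.45 (0.0399), a call near the threshold that was not checked on the other scalings or without 1 array. Among MAP kinase phosphatases, Dusp4 fell by 0.8 at P6 against P0 (0.0061), and Dusp7 rose by 0.84 ± 0.23 at P14 against P6 (0.00785). Another early response gene, Egr1, rose by 0.67 ± 0.124 at P14 against P6 (0.000147). Myc changed by -0.75 ± 0.211 at P6 against P0 (0.0146, lost in 2 of 10 fits that left out 1 array).

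**Figure D5:**
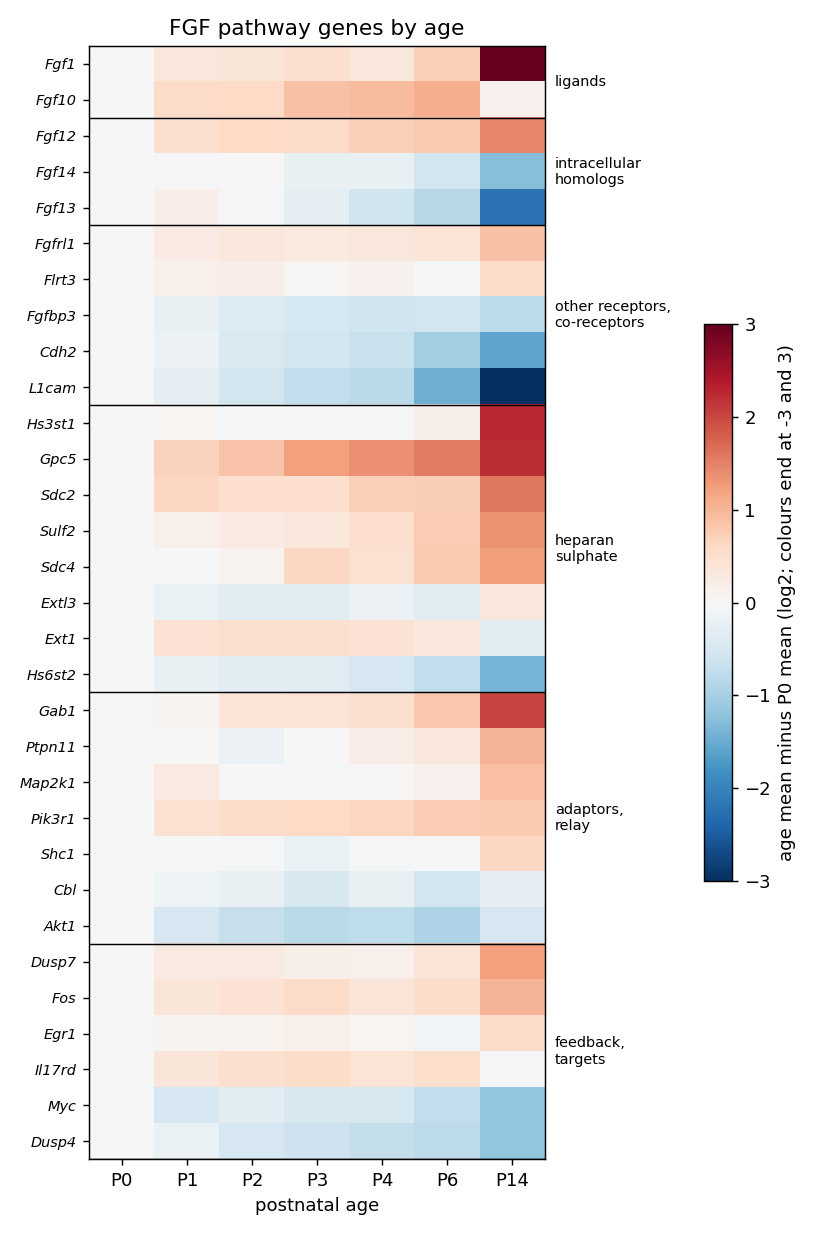
Age mean minus P0 mean (log2, colour scale ending at -3 and 3) of the named pathway genes, grouped by role, at each of the 7 ages. Fgf1, Hs3st1, Gpc5 and Gab1 are darkest red at P14, where they stand 3.04, 2.25, 2.22 and 2.03 above P0, and L1cam is darkest blue, at -3.77.

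As a description, the genes whose values followed each member most closely over the 33 arrays were found among 14416 named genes by Pearson's r. The arrays share ages, scaling and amplification, so r also holds what these have in common, and no p is given. For Fgfr2 the highest r were with Clic4 (0.942), Asah2 (0.941), Ndrg4 (0.938), Gltp (0.937) and Pygm (0.936), and the lowest with Jpt1 (-0.887), Fbxl7 (-0.878) and Ly6h (-0.87). For Fgf9 they were S1pr3 (0.714), Sec24b (0.687), Mlc1 (0.683), Ntrk2 (0.68) and Sh3d19 (0.67), and Plin5 (-0.714), Olfr661 (-0.637) and Zmynd19 (-0.636) were lowest. Fgfr2 thus had closer followers than Fgf9 over arrays of all ages. With each age's mean taken out, r with the genes of highest r ran from 0.644 to 0.778 for Fgfr2. For Fgf9 it ran from 0.562 to 0.748, so these ranges overlapped.

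For Fgfr1 the highest r were with Cabp1 (0.843), Wipf2 (0.826), Sirt7 (0.805), Mgat3 (0.804) and Usp19 (0.796), and the lowest with Wnt3a (-0.67), Acot2 (-0.645) and S1pr4 (-0.636). For Fgfr3 they were Rab34 (0.765), Trim9 (0.756), Ccdc50 (0.723), Dtx4 (0.723) and Lrfn1 (0.717), and Mymk (-0.683), Rbbp8nl (-0.677) and Btnl10 (-0.676) were lowest. The members were not each other's closest followers. Over the 33 arrays r was 0.418 between Fgf9 and Fgfr2, 0.348 between Fgf9 and Fgfr3, 0.277 between Fgf9 and Fgfr1, 0.442 between Fgfr1 and Fgfr2, 0.085 between Fgfr1 and Fgfr3, and 0.034 between Fgfr2 and Fgfr3. With each age's mean taken out, all 6 r were positive: 0.474 between Fgf9 and Fgfr1, 0.408 between Fgf9 and Fgfr2, 0.444 between Fgf9 and Fgfr3, 0.414 between Fgfr1 and Fgfr2, 0.243 between Fgfr1 and Fgfr3, and 0.657 between Fgfr2 and Fgfr3.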

How the data were processed

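The authors deposited log2 values for 16686 probe sets on 33 arrays of MNTB tissue, and the submitters' processing notes name Partek 6.3, RMA and the build mm9. RMA subtracts background, scales the arrays to each other and combines the probes of a set, assuming that most genes stay level. The sources used here do not give its settings. RNA from needle-dissected tissue was amplified before labelling, per the labels' protocols, which can add variation between arrays. Precision is limited by the number of arrays.

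Of the probe sets 14993 had a single symbol in the platform annotation, 1019 several and 674 none, and 14939 took RefSeq's symbol by Entrez number. A mean per age was fitted to all 33 arrays with limma 3.58.1 (R 4.3.3), and slopes to the 29 arrays up to P6. P-values were two-sided and adjusted by Benjamini-Hochberg over all probe sets of a comparison, with a threshold of 0.05. Differences between members were tested by exact permutation of mice and adjusted over 18 tests. The fit was tested on simulated data.

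The members, the lists and the alternatives were chosen with earlier results of these data known. Named pathway genes are up to 4 called members per list and comparison with the largest changes, and Fgf16 and Fgf20. Other genes named were chosen after their values were seen.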

Additional observations from a re-analysis of the deposited data

Results flagged for a closer look

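In 28 groups of 4 or 5 mice (4 genes at 7 ages), 4 groups held a mouse that stood apart from the rest by Dixon's 95% limit, which chance passes in about 1 group in 20. The P6 litter 4 mouse had an Fgfr1 value of 4.80, with the nearest other P6 mouse at 5.41, and an Fgfr2 value of 5.68, with the nearest at 6.27. The gaps were 0.752 and 0.737 of the range over P6 mice. This array also had the lowest quality weight of all 33, at 0.271. For Fgfr3, the P1 litter 1 mouse stood at 5.61, with the nearest P1 mouse at 5.39 and a gap of 0.745 of the range. The P14 litter 1 mouse stood at 5.78 for Fgfr3, with the nearest P14 mouse at 5.26 and a gap of 0.891 of the range. Litter 1 was the highest mouse for Fgfr3 at 5 of the 7 ages.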

How the results depend on the processing

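Of 2300 values under alternatives, 2123 were kept and 177 were not. A change was kept if it held its direction and side of the threshold. A count was kept if it stayed close to the main count, as with 21 pathway genes higher at P14 against P0 after quantile normalization, for 25 as deposited. Among named pathway genes 57 calls were lost and 0 directions turned. The 3 changes, the F test and the slope of Fgfr2 kept their calls throughout. The counts of pairs of ages and the left-out arrays of the slopes were alternatives added after seeing the data. Causes were not tested, except that leaving out a mouse leaves fewer arrangements for the permutation tests.

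Quantile normalization gave 0.46 for Fgfr2 minus Fgf9 at P6 against P0 (exact permutation, adjusted p 0.039), an F test adjusted p of 0.00393 for Fgfr3, 11 higher and 19 lower pathway genes at P14 against P6, 34 lower at P14 against P0, 0.27 for Fgfr1 at P14 against P6, -0.38 for Fgfr3 at P14 against P0, 0 pairs called for Fgfr1 (4 as reported) and 4 for Fgfr3 (0 as reported), and slopes of 0.079 for Fgf9 and 0.003 for Fgfr3. Array centring gave 0.0242 for the Fgfr3 F test, 15 lower pathway genes at P14 against P6 and 30 at P14 against P0, 0.32 for Fgfr1 at P14 against P6, -0.36 for Fgfr3 at P14 against P0, 1 and 4 pairs called for Fgfr1 and Fgfr3, and an Fgf9 slope of 0.071. Array quality weights gave 0.54 for Fgf9 at P6 against P0 (limma adjusted p 0.0376), 0.2 for Fgfr1 at P14 against P6, 14 lower pathway genes at P14 against P6, 2, 1 and 1 pairs called for Fgf9, Fgfr1 and Fgfr3, and slopes of 0.074 for Fgf9, 0.003 for Fgfr1 and 0.004 for Fgfr3. Fits to the 2 ages alone gave 10 lower pathway genes at P6 against P0 and 0.43 for Fgfr1 at P14 against P6 (limma adjusted p 0.195). Without the 3 arrays of lowest weight, Fgfr1 at P14 against P6 was 0.29 (0.112), Fgfr3 had 1 pair called and its slope was 0.005. With dim probe sets dropped, Fgfr3 had 1 pair called.

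With litter number as a block, Fgfr3 had an F test adjusted p of 0.0414, a change of -0.29 at P14 against P0 and 4 pairs called, and Fgf9 had 1 pair called and a slope of 0.069. The Fgf9 pair was P3 against P0. The share of all probe sets called with the block was not counted. For Fgfr1 the block gave 3 pairs called and for Fgfr2 11, and it changed no other call of a main change, F test or slope of a member. Over 94 pairs of arrays of the same number and different ages, deviations from the age means correlated from -0.321 to 0.646 with a median of 0.062, against a median of -0.014 for other numbers. Of these pairs 36 were over 0.1, and 18 of 33 arrays were closest to their own number, a hint in the data that mice of a number share something. How many arrays would be closest to their own number by chance was not tested. The labels do not settle it, and the values with the block stand in the report where they change a call.

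With 1 array left out at a time, the F test adjusted p ran from 0.0345 to 0.323 for Fgfr1 and from 0.042 to 0.34 for Fgfr3. At P14 against P6 Fgf9 ran from -0.18 to 0.12 and Fgfr1 from 0.26 to 0.55, and Fgfr3 at P14 against P0 from -0.38 to -0.19. Pairs called ran from 0 to 5 for Fgfr1 and from 0 to 4 for Fgfr3, and slopes from 0.058 to 0.086 for Fgf9 and from -0.006 to 0.011 for Fgfr3. Calls of differences lost in these fits were 8 of 10. Differences of change at P6 against P0 ran from -0.78 to -0.53 for Fgfr1 minus Fgf9, 0.32 to 0.5 for Fgfr2 minus Fgf9 and -0.65 to -0.47 for Fgfr3 minus Fgf9. At P14 against P6 they ran from 0.38 to 0.53 for Fgfr1 minus Fgf9, 0.72 to 1.13 for Fgfr2 minus Fgf9, 0.29 to 0.69 for Fgfr2 minus Fgfr1, -0.31 to 0.15 for Fgfr3 minus Fgf9 and -1.06 to -0.91 for Fgfr3 minus Fgfr2. At P14 against P0 they ran from 1.14 to 1.56 for Fgfr2 minus Fgf9, 1.39 to 1.79 for Fgfr2 minus Fgfr1 and -2.04 to -1.92 for Fgfr3 minus Fgfr2.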
